A study of Mus musculus with 18 samples.

Results

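The 38 genes described here encode the proteins that copy DNA and divide cells, and serve as markers of proliferation. They were chosen by name, and all 38 were found among the 23652 entries of the expression table, which give each gene by its symbol alone. By role they fall into 13 genes of origin licensing and entry into S phase, 4 of DNA synthesis in S phase, 9 regulators of the passage from G2 into mitosis, 5 of the spindle checkpoint and mitotic exit, and 7 of chromosome, spindle and centromere structure. They were measured by messenger RNA sequencing in 18 mouse libraries that the labels call thyrocytes sorted by yellow fluorescent protein (YFP), taken at 20 weeks from animals marked as naïve. Of these libraries 15 were tumours with BrafV600E, a change that keeps the kinase Braf active. In 4 of them (K5-Tert tumours) the genotype was BrafV600E+K5-Tert, with a transgene that drives telomerase reverse transcriptase (Tert) from a keratin 5 promoter. Another 7 (Tert-123 tumours) had the genotype BrafV600E+Tert-123C>T, a base change in the Tert promoter, and the remaining 4 (Braf tumours) had BrafV600E alone. The other 3 libraries were 1 pool each of K5-Tert, of Tert-123C>T and of wild-type samples without BrafV600E. The labels give the source of every library, the pools included, as thyroid tumour, and do not name the Cre driver, the number of mice in a pool or whether each tumour library came from a separate animal. All p-values therefore measure the spread between these samples.

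A cell that commits to division loads the helicase MCM2 to MCM7 onto origins with the help of CDC6 and CDT1, fires them under cyclin E with CDK2, and copies its DNA with the sliding clamp PCNA. Cyclins A and B with CDK1, switched on by FOXM1, MYBL2, PLK1 and the aurora kinases, then drive mitosis, which ends when CDC20 and UBE2C direct the destruction of the cyclins. Genes of the first step are known as targets of E2F factors, and genes of the second carry a cell cycle homology region (CHR) and CCAAT boxes bound by the DREAM complex in resting cells and by MYBL2, FOXM1 and NF-Y in dividing ones. Thyrocytes of the adult gland divide rarely, and constitutive Braf signalling is known to drive thyroid tumours in mice.

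The promoters of 6 members are printed here because they show these elements in genes on which the results turn. They are windows from 250 bases before to 50 bases after the transcription start, from RefSeq on GRCm38.p6, 5′ to 3′ on the strand of the gene. Capitals mark the CHR core TTTGAA, the E2F sites TTTCCCGC, TTTGGCGC and TTTCGCGC, and the CCAAT box, searched on both strands, so that some appear as reverse complements. CDK1 (chr10:69352863-69353162, minus strand), TOP2A (chr11:99024140-99024439, minus strand) and CENPA (chr5:30666636-30666935, plus strand) stand for the mitotic genes. MCM6 (chr1:128359656-128359955, minus strand) and MCM3 (chr1:20820263-20820562, minus strand) stand for the licensing genes. PCNA (chr2:132253131-132253430, minus strand) is the most abundant member and passed the threshold in no comparison.
CDK1: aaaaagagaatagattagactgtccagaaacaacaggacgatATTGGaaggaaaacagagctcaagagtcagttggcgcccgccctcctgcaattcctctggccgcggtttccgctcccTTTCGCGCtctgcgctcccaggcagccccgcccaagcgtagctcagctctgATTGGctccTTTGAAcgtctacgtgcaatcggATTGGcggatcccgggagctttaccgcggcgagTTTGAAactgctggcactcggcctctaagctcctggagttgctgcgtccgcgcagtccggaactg
TOP2A: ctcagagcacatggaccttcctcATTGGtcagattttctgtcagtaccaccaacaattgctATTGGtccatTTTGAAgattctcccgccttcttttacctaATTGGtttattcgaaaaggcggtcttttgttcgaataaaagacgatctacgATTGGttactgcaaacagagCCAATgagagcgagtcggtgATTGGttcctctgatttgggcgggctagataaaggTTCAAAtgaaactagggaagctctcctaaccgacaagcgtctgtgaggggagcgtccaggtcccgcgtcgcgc
CENPA: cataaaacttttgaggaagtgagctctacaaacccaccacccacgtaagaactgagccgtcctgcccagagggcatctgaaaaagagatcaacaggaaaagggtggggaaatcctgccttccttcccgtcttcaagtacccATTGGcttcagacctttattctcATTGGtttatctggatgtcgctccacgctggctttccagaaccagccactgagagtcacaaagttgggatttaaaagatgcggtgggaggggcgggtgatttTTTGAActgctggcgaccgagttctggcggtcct
MCM6: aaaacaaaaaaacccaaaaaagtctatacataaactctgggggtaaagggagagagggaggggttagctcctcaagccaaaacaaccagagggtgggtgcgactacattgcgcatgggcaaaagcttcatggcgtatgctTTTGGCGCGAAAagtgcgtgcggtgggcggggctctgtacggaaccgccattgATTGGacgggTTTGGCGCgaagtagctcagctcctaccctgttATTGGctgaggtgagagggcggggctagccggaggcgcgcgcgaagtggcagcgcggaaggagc
MCM3: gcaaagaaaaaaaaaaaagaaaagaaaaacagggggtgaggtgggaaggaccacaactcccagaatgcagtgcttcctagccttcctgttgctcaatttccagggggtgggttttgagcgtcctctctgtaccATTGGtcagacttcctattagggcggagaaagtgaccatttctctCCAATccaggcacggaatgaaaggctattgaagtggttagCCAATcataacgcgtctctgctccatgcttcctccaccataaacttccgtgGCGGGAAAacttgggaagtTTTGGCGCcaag
PCNA: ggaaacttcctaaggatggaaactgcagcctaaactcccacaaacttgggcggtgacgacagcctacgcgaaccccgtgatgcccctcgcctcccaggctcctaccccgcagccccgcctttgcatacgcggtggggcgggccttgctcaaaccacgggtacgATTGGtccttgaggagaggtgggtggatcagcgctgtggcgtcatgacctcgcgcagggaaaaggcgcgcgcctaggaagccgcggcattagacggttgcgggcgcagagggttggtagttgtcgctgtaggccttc
The CHR core lies 71 and 15 bases before the start of CDK1, and 179 and 23 bases before that of TOP2A. In CENPA it begins at base 17 after the start. MCM6 holds 3 E2F matches and MCM3 holds 2, and the matches 110 and 106 bases before the start of MCM6 overlap. CDK1 also holds 1 E2F match, 131 bases before its start. PCNA holds none of the E2F or CHR letters in its window and 1 CCAAT box, 87 bases before the start.

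A window was given for 32 of the 38 members, with 34 windows in all because E2F2 and MCM7 have 2 each. CCNE2, MCM4, CCNA2, FOXM1, AURKB and TPX2 had no window. The CHR core was found in 14 of the 34 member windows (41.2%), against 17.9% of the 32851 windows of all genes. By role it was in 5 of 6 windows of the chromosome and spindle genes, 3 of 5 of the checkpoint genes and 4 of 6 of the G2 and mitosis regulators, but in 2 of 13 of the licensing genes and 0 of 4 of the synthesis genes. E2F sites ran the other way, with 8 of 13 windows of the licensing genes, 1 of 6 of the G2 and mitosis regulators and 0 in the other roles, which made 26.5% of member windows against 1.84% of all windows. CCAAT boxes were in 79.4% of member windows and 37.4% of all windows. These shares describe letters in the windows and were not tested.

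**Figure D1:**
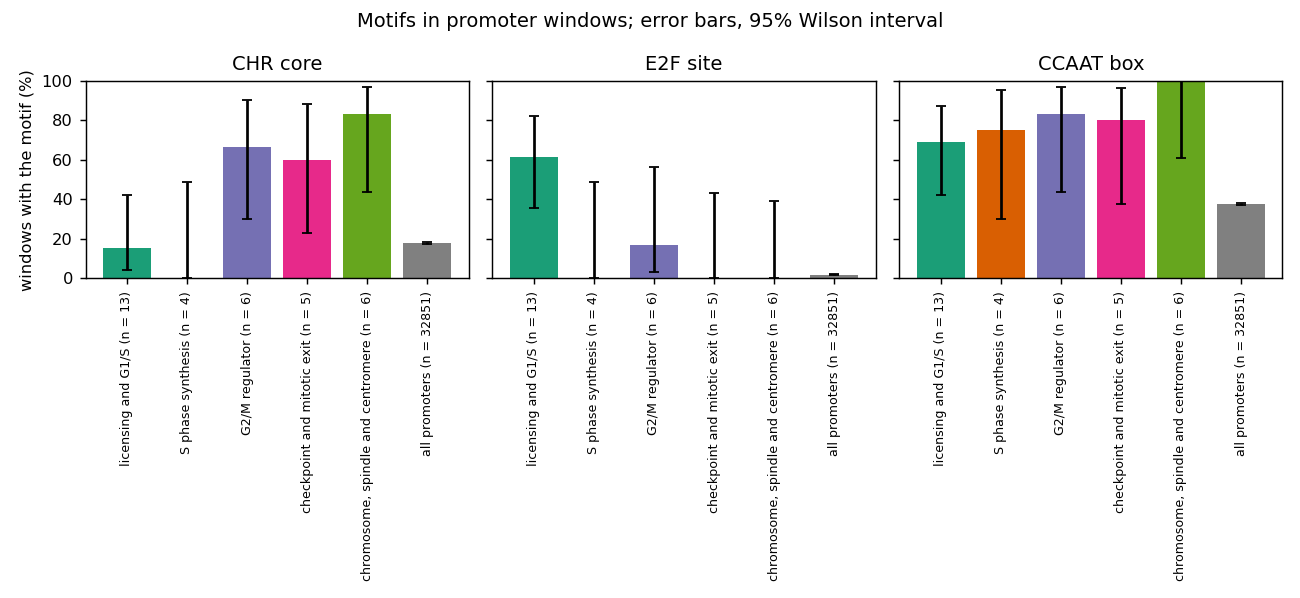
Share of promoter windows (%) that hold the CHR core, an E2F site or a CCAAT box, by role of the gene and for all 32851 windows, with 95% Wilson intervals. The CHR core is in 5 of 6 windows of the chromosome, spindle and centromere genes and E2F sites are in 8 of 13 windows of the licensing genes.

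Levels are given in TPM, a transcript abundance corrected for length and scaled to the same total in every library. The noncoding RNA RPPH1 took 43.7% to 68.8% of the total, and between 13652 and 20374 genes had a value above 0 in a tumour, against 12757 to 14123 in a pool. TERT, the gene the alleles act on, was at 73.9, 11.2, 19.0 and 53.4 TPM in the K5-Tert tumours, from 2.65 over a median of 5.88 to 6.23 TPM in the Tert-123 tumours, and at 4.96, 4.49, 5.12 and 3.78 TPM in the Braf tumours. It was at 125 TPM in the K5-Tert pool, 8.79 TPM in the Tert-123C>T pool and 2.15 TPM in the wild-type pool. BRAF was at 2.40 to 9.03 TPM in the tumours and 8.68 to 15.8 TPM in the pools. The nuclear RNA MALAT1 was at 5902, 1191, 1908 and 1050 TPM in the K5-Tert tumours and at 5072 to 8420 TPM in the other tumours. The labelled cell type was checked against 17 thyrocyte markers, of which 12 to 16 reached 1 TPM in each tumour and 15 or 16 in each pool, while their sum was 1536 to 3522 TPM in tumours against 28050 to 35493 TPM in pools.

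The members were low to moderate in abundance. Over all 38, the mean of log2(TPM + 1) was 2.29, 1.55, 2.57 and 1.44 in the K5-Tert tumours, from 1.98 over a median of 2.23 to 2.53 in the Tert-123 tumours, and 2.16, 2.30, 2.46 and 2.13 in the Braf tumours. It was 1.16 in the K5-Tert pool, 1.44 in the Tert-123C>T pool and 1.27 in the wild-type pool. Thus 14 of 15 tumours lay clear of the pools, while K5-Tert tumour 4 and the Tert-123C>T pool had the same mean to 3 digits. A library had 20 to 37 members at 1 TPM or more among the tumours, against 13, 21 and 15 in the 3 pools. PCNA was the highest member in all 18 libraries, at 17.7 to 67.4 TPM in tumours and 36.9 to 44.1 TPM in pools.

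**Figure D2:**
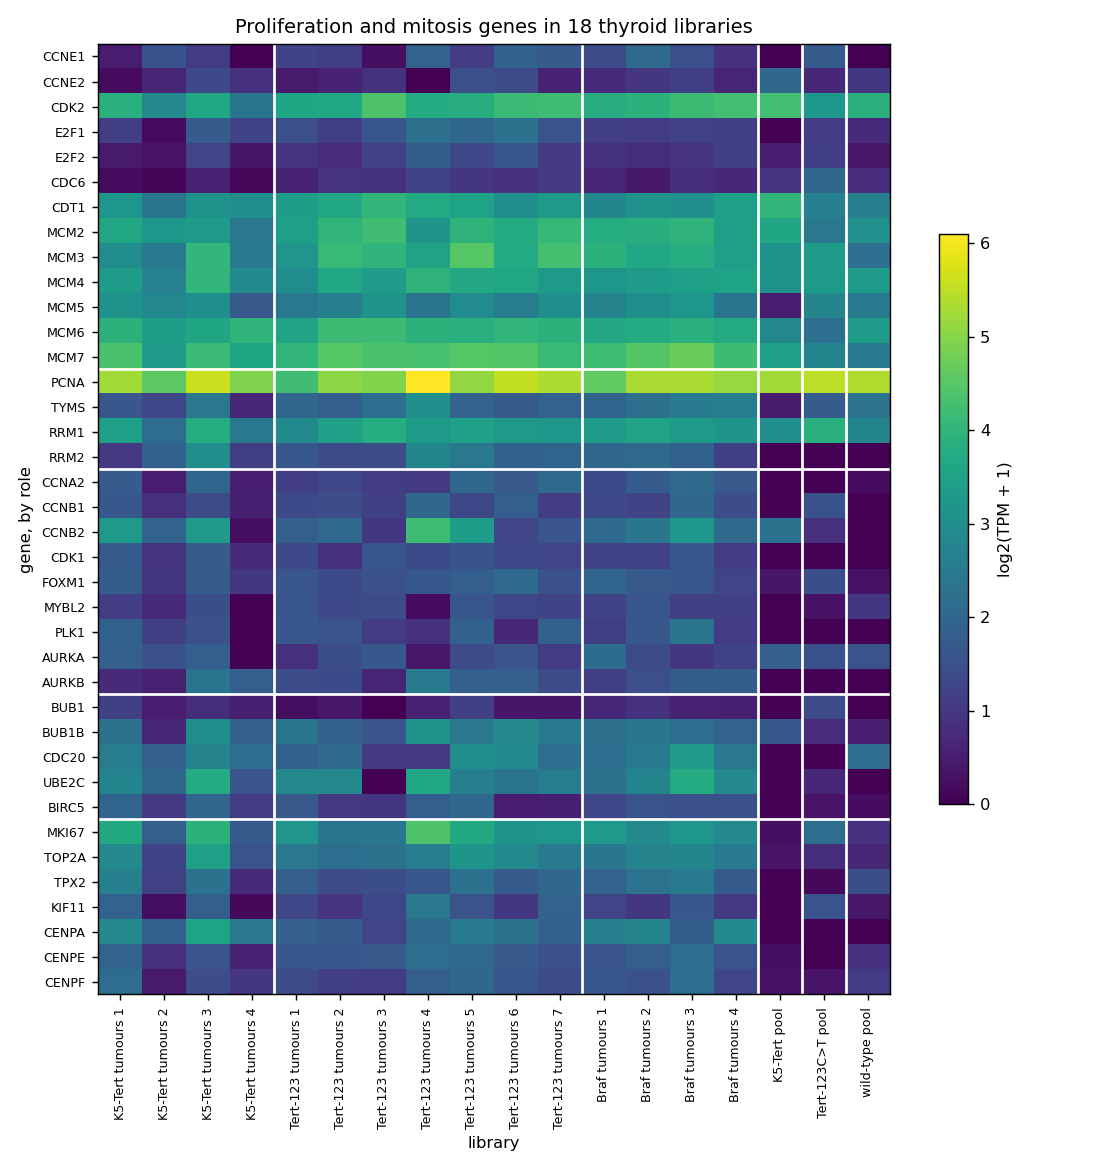
Level of each of the 38 genes as log2(TPM + 1) (colour) in each of the 18 libraries (columns, by group), with genes in rows ordered by role. Many rows of the mitotic roles in the lower part are dark, at or near 0, in the 3 pools at the right, whereas most licensing and synthesis rows at the top have a level above 0 in the pools too.

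The comparison of the 15 tumours with the 3 pools asks what goes with BrafV600E, with the Tert allele fitted beside it. Every library without BrafV600E is a pool, and no library with it is labelled as one. The fit therefore cannot tell BrafV600E from pooling. Nor can it tell BrafV600E from the number of genes detected, 12757 to 14123 in pools and 13652 to 20374 in tumours. This bears most on members listed at 0 in every pool. Most of the members that rose were of the mitotic roles. Of the 36 members tested, 18 were higher in tumours and 0 lower at an adjusted p under 0.05, against 14.2% of all 14711 genes tested that were called higher and 10.3% called lower. At an unadjusted p under 0.05, 22 members were higher and 0 lower, beside 5363 of all 14711 genes in either direction. The split over all genes, 2087 higher and 1510 lower, turned to 2214 and 2476 under quantile normalization and to 2122 and 2722 with a trend in transcript length removed, while the members stood at 12 higher and 1 lower and at 18 higher and 0 lower. They comprised 6 of 7 chromosome, spindle and centromere genes, 4 of 4 checkpoint and exit genes tested and 5 of 9 G2 and mitosis regulators, but 1 of 4 synthesis genes and 2 of 12 licensing genes tested. A gene was tested when it reached 1 TPM in at least 4 libraries, which the 3 pools alone cannot supply. Of the 18 members called, 10 were below 1 TPM in every pool and so entered through the tumours, as did 546 of the 2087 genes called higher in all, and BUB1 and CDC6 were not tested. With no filter, 15 of all 38 members were higher and 1 lower, against 7.88% and 6.27% of 22693 genes. The lower one was CDC6, which loads the helicase, at 0.0837 to 1.35 TPM in tumours and 0.909, 3.06 and 0.712 TPM in the K5-Tert, the Tert-123C>T and the wild-type pool (log2 fold change -0.65, adjusted p = 0.03037).

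Among the chromosome and spindle genes, TOP2A, the topoisomerase that untangles replicated DNA, was at 6.32, 1.37, 9.98 and 1.95 TPM in the K5-Tert tumours, from 3.66 over a median of 4.64 to 7.87 TPM in the Tert-123 tumours, and at 4.27, 5.65, 5.84 and 4.59 TPM in the Braf tumours, against 0.250, 0.735 and 0.586 TPM in the K5-Tert, the Tert-123C>T and the wild-type pool. Every tumour lay above every pool, and the log2 fold change was 1.89 ± 0.35 (SE, adjusted p = 0.0003522, limma on log2(TPM + 1), as for all fold changes here). CENPA, the histone that marks the centromere, was listed at 0 in all 3 pools. In tumours it was at 6.36, 2.74, 10.6 and 4.46 TPM with K5-Tert, from 1.44 over a median of 2.73 to 4.69 TPM with Tert-123C>T, and at 5.29, 5.71, 2.50 and 6.56 TPM with BrafV600E alone (adjusted p = 1.46e-05). MKI67, the gene of the Ki-67 antigen that coats mitotic chromosomes, was at 12.0, 2.60, 14.0 and 2.31 TPM in the K5-Tert tumours, from 4.19 over a median of 8.12 to 19.9 TPM in the Tert-123 tumours, and at 8.66, 6.32, 8.14 and 6.35 TPM in the Braf tumours, against 0.189, 3.56 and 0.837 TPM in the K5-Tert, the Tert-123C>T and the wild-type pool. It rose by 1.88 ± 0.44 (adjusted p = 0.003351), and 13 of 15 tumours lay above every pool, the exceptions being K5-Tert tumours 2 and 4. The kinetochore motor gene CENPE (log2 1.26), the kinetochore gene CENPF (0.93) and TPX2, which activates Aurora A on the spindle (1.35), were also called. KIF11, the motor that separates spindle poles, was not (0.57, adjusted p = 0.2919), with 0.0982 to 4.46 TPM in tumours and 0, 1.99 and 0.317 TPM in the pools.

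**Figure D3:**
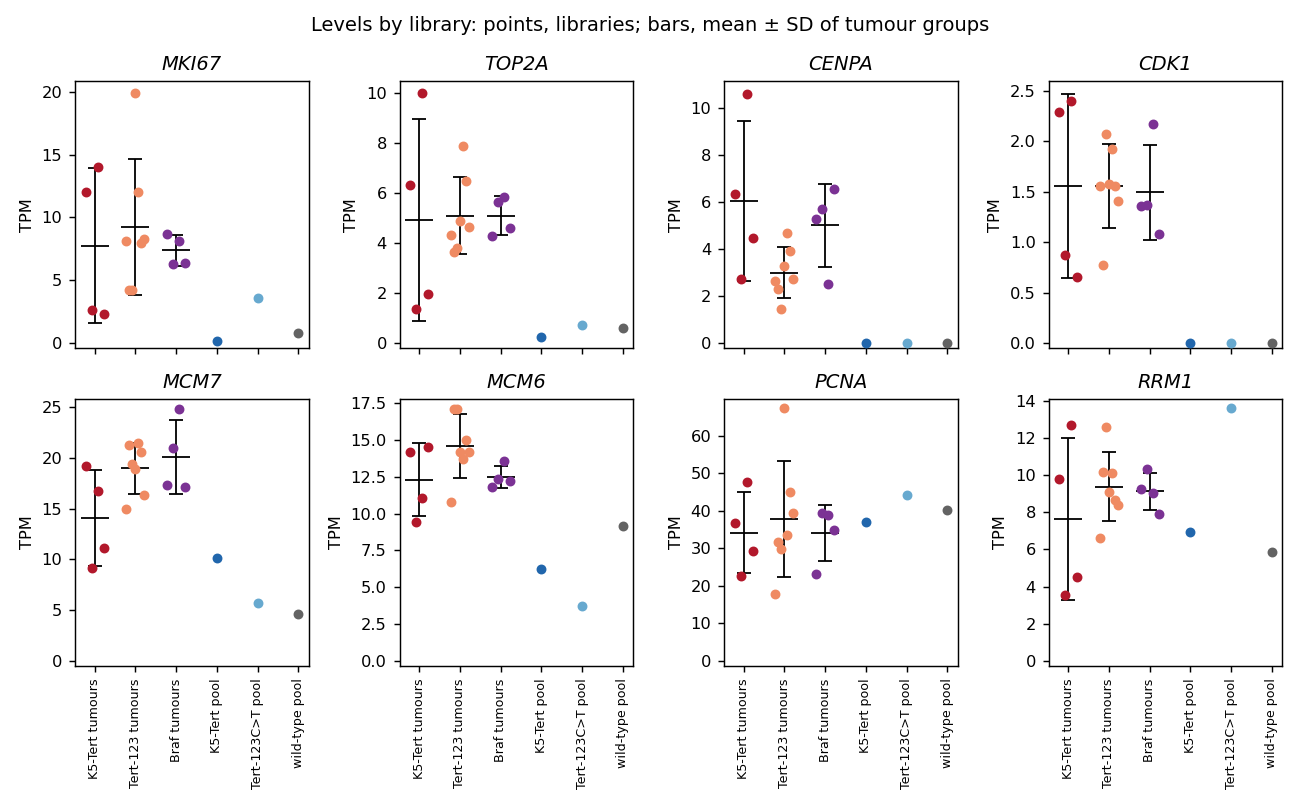
TPM of 8 members in each library (points, linear axes from 0), with the mean ± SD of the 3 tumour groups (n = 4, 7 and 4) and 1 point for each pool. TOP2A, CENPA, CDK1 and MCM6 lie above all pools in every tumour, whereas the PCNA pools lie within the range of the tumours.

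Of the checkpoint and exit genes, UBE2C, which loads ubiquitin for the anaphase-promoting complex, was at 5.75, 3.03, 12.4 and 2.05 TPM in the K5-Tert tumours, from 0 over a median of 5.06 to 11.4 TPM in the Tert-123 tumours, and at 3.92, 5.69, 12.4 and 6.36 TPM in the Braf tumours, against 0, 0.616 and 0 TPM in the K5-Tert, the Tert-123C>T and the wild-type pool (log2 2.37 ± 0.52, adjusted p = 0.001969). In 14 of 15 tumours it was above every pool, and Tert-123 tumour 3 was listed at 0. CDC20, the activator of the same complex, was called at 1.61 (adjusted p = 0.006003), BIRC5 (survivin, of the chromosomal passenger complex) at 1.22 (adjusted p = 0.009846) and the checkpoint kinase BUB1B at 1.21 (adjusted p = 0.02604). CDC20 was listed at 0 in 2 pools but stood at 3.52 TPM in the wild-type pool, within the 1.04 to 9.26 TPM of the tumours. The related kinase BUB1 was at 0 to 1.24 TPM in tumours and at 0, 1.64 and 0 TPM in the pools.

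Among the regulators, CDK1, the kinase that drives mitosis, was listed at 0 in all 3 pools and was at 2.29, 0.878, 2.41 and 0.660 TPM in the K5-Tert tumours, from 0.773 over a median of 1.56 to 2.07 TPM in the Tert-123 tumours, and at 1.36, 1.37, 2.17 and 1.08 TPM in the Braf tumours (adjusted p = 0.001022). The mitotic kinases AURKB (0.470 to 4.76 TPM in tumours, adjusted p = 0.003907) and PLK1 (0 to 4.08 TPM, adjusted p = 0.008588) were likewise listed at 0 in every pool. Cyclin A2 (CCNA2) was at 0.384 to 3.31 TPM in tumours, with every tumour above the 0, 0 and 0.156 TPM of the K5-Tert, the Tert-123C>T and the wild-type pool (log2 1.40 ± 0.33, adjusted p = 0.003759). FOXM1, the transcription factor of the mitotic genes, passed narrowly (0.83 ± 0.28, adjusted p = 0.03489). The B cyclins did not pass. CCNB1 was at 2.22, 0.779, 1.68 and 0.439 TPM in the K5-Tert tumours, from 1.17 over a median of 1.60 to 3.15 TPM in the Tert-123 tumours, and at 1.53, 1.37, 3.19 and 1.70 TPM in the Braf tumours, against 0, 1.88 and 0 TPM in the K5-Tert, the Tert-123C>T and the wild-type pool (0.83 ± 0.32, adjusted p = 0.06279). It passed, for example, without the Tert-123C>T pool (1.32, adjusted p = 0.01316). CCNB2 (1.24, adjusted p = 0.1531) and MYBL2 (0.71, adjusted p = 0.1108) did not pass, nor did AURKA, the centrosomal kinase, at 0 to 3.42 TPM in tumours and 2.54, 1.90 and 1.99 TPM in the pools (-0.33, adjusted p = 0.5308).

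The synthesis genes divided. RRM2, the subunit of ribonucleotide reductase whose level follows the cell cycle, was listed at 0 in all 3 pools and at 1.02 to 6.94 TPM in tumours (adjusted p = 0.000795). Its partner RRM1 was at 3.52 to 12.7 TPM in tumours and 6.96, 13.6 and 5.84 TPM in the K5-Tert, the Tert-123C>T and the wild-type pool (-0.01 ± 0.29, adjusted p = 0.9849). PCNA was at 36.8, 22.6, 47.8 and 29.3 TPM in the K5-Tert tumours, from 17.7 over a median of 33.6 to 67.4 TPM in the Tert-123 tumours, and at 23.2, 39.3, 38.8 and 34.8 TPM in the Braf tumours, against 36.9, 44.1 and 40.3 TPM in the K5-Tert, the Tert-123C>T and the wild-type pool (-0.25 ± 0.28, adjusted p = 0.5525). Both the PCNA and the RRM1 pools thus overlapped the tumours. TYMS, which makes thymidylate, stood at 0.48 ± 0.33 (adjusted p = 0.3045).

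Of the licensing genes, the helicase subunits MCM7 and MCM6 were called. MCM7 was at 19.3, 9.15, 16.7 and 11.1 TPM in the K5-Tert tumours, from 14.9 over a median of 19.4 to 21.5 TPM in the Tert-123 tumours, and at 17.4, 21.0, 24.8 and 17.1 TPM in the Braf tumours, against 10.2, 5.74 and 4.64 TPM in the K5-Tert, the Tert-123C>T and the wild-type pool (1.28 ± 0.26, adjusted p = 0.001007). Only K5-Tert tumour 2 lay below a pool. MCM6 was at 9.47 to 17.1 TPM in tumours, all above the 6.23, 3.69 and 9.18 TPM of the K5-Tert, the Tert-123C>T and the wild-type pool (1.02 ± 0.23, adjusted p = 0.002877). The other 4 subunits did not pass, with MCM5 at 0.81, MCM3 at 0.63, MCM2 at 0.57 ± 0.30 (adjusted p = 0.1774) and MCM4 at 0.13. MCM2 was at 4.42 to 17.8 TPM in tumours and 11.0, 4.44 and 7.49 TPM in the K5-Tert, the Tert-123C>T and the wild-type pool, and it passed, for example, without the K5-Tert pool (1.03, adjusted p = 0.01953) and after rescaling by factors of the TMM type (0.62, adjusted p = 0.03601). E2F1, the activator of S-phase genes, was at 0.141 to 3.84 TPM in tumours and 0, 1.14 and 0.684 TPM in the pools (0.71 ± 0.31, adjusted p = 0.09574), and E2F2 stood at 0.26. Cyclin E1 (CCNE1) was at 0 to 3.33 TPM in tumours and 0, 2.40 and 0 TPM in the pools (0.57 ± 0.39, adjusted p = 0.3092). CCNE2 (-0.43), CDK2 (-0.05) and CDT1 (0.11) had adjusted p-values of 0.3578 to 0.929.

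**Figure D4:**
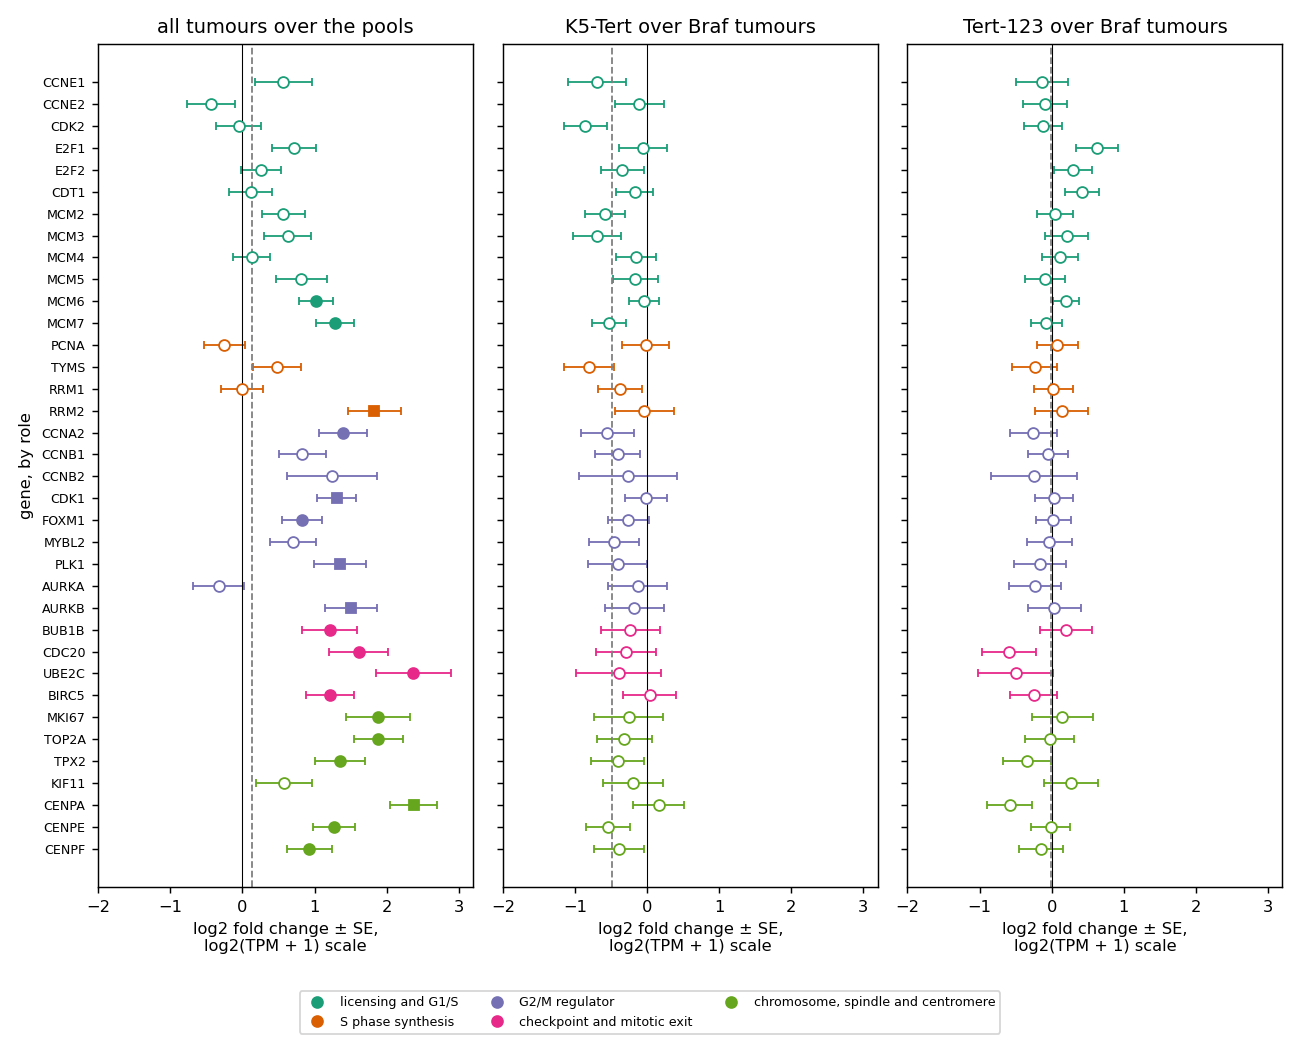
Log2 fold change ± SE on the log2(TPM + 1) scale of the 36 members tested, by role, for the 15 tumours over the 3 pools, K5-Tert over Braf tumours and Tert-123 over Braf tumours. Filled symbols passed at an adjusted p under 0.05, squares are genes listed at 0 in every pool, for which the size depends on the pseudocount, and the dashed grey line is the median of all genes. In the first panel 18 members are filled, 15 of them of the 3 mitotic roles, and in the other panels none is.

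Over the 36 members the median log2 fold change of tumours over pools was 0.88 (0.81 without the 5 listed at 0 in every pool), beside 0.13 over all genes tested. Every tumour lay above every pool for 8 members, CENPA, TOP2A, RRM2, CDK1, MCM6, CCNA2, AURKB and BIRC5, where 5.17% of all genes tested did so. All of these but MCM6 were below 1 TPM in every pool and so entered the test through the tumours. Such genes were 11 of the 36 members tested but 1629 of all 14711 genes, so the 5.17% is no like background. No member had every tumour below every pool, as 5.45% of all genes did. Leaving out 1 tumour at a time kept at least 17 of the 18 calls, with FOXM1 or CENPF the one lost. Calls depended more on the pools, since each genotype without BrafV600E is a single pool that is assumed to vary like the tumours. Without the K5-Tert pool 14 of the 18 calls remained, without the Tert-123C>T pool 12 and without the wild-type pool 13, while 19.9%, 9.73% and 8.38% of all genes tested were called higher in those fits (2911, 1418 and 1225 genes). CENPF was lost in each of these fits, and MCM6 (adjusted p = 0.0847), CENPE (adjusted p = 0.05217), TPX2 (adjusted p = 0.05735), CDC20 (adjusted p = 0.05928) and BUB1B (adjusted p = 0.1553) without the Tert-123C>T pool. In bulk samples, fewer dividing cells and less of these transcripts per cell cannot be told apart.

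Other genes of the same pathways were counted from lists by role. Of 66 other mitosis genes tested, 25 were higher in tumours (37.9%, beside 14.2% of all genes) and 1 lower, led by the condensin subunit NCAPH (3.34 TPM in tumours against 0.0835 TPM in pools on average, log2 1.95, adjusted p = 1.352e-05), the phosphatase CDC25B that activates CDK1 (14.3 against 2.96 TPM, log2 2.17, adjusted p = 2.012e-05) and the motor KIF22 (2.35 against 0.0900 TPM, log2 1.56, adjusted p = 0.0004205). The lower one was the kinetochore gene ZW10 (9.16 against 16.7 TPM, log2 -0.81). NCAPH and KIF22 stood at no more than 0.2505 and 0.2701 TPM in any pool, and so entered the test through the tumours. Of the 66 genes, 6 were listed at 0 in every pool. Genes below 1 TPM in every pool were 1629 of all 14711 tested, and their share of these lists was not counted. The 14.2% is therefore no matched background for the lists. Of 45 other replication genes 9 were higher, a share of 20% that is nearer to the 14.2% of all genes, and 1 was lower. Thymidine kinase 1 (TK1) averaged 8.55 TPM in tumours against 1.03 TPM in pools (log2 2.49, adjusted p = 2.315e-05) and the single-strand binding subunit RPA3 13.7 against 1.82 TPM (log2 2.46, adjusted p = 9.595e-05), and the helicase cofactor CDC45 averaged 2.36 TPM and was listed at 0 in every pool (adjusted p = 0.0002961). The lower one was geminin (GMNN), the inhibitor of CDT1, at 8.70 against 31.3 TPM (log2 -1.46, adjusted p = 0.002477). The medians of the mitosis and replication lists, 0.73 and 0.48 (0.69 and 0.47 without genes listed at 0 in every pool), lie beside 0.13 for all genes.

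Of 18 genes of the E2F, RB and DREAM systems 3 were higher and 1 lower, shares of 16.7% and 5.56% that lie near or below the 14.2% and 10.3% of all genes, with a list median of 0.11 beside 0.13. The higher ones were E2F8 (1.34, adjusted p = 0.003324), E2F3 (0.85) and the E2F partner TFDP1 (0.68), and RB1, the retinoblastoma protein that holds E2F in check, was lower at 4.25 TPM in tumours against 8.37 TPM in pools (-0.92, adjusted p = 0.04121). Of 12 D cyclins, their kinases and their inhibitors 5 were higher (41.7%) and 2 lower (16.7%). Cyclin D1 (CCND1) averaged 180.4 TPM in tumours against 10.2 TPM in pools, with every tumour at 74.7 TPM or more and every pool at 13.5 TPM or less (log2 3.92 ± 0.27, adjusted p = 8.502e-10). The inhibitors CDKN2A (26.9 TPM in tumours, listed at 0 in every pool, adjusted p = 1.195e-07) and CDKN2B (58.7 against 6.45 TPM, log2 2.87, adjusted p = 1.719e-06) were called as well, as were CDKN2C (1.16) and CDKN1B (0.60). Cyclin D2 (CCND2, 37.2 against 81.5 TPM) and CDK6 (3.08 against 8.13 TPM) were the lower ones. The median of these 12, 0.06, was below that of all genes.

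Markers of several other cell types moved with the same comparison, in which 14.2% of all genes were called higher and 10.3% lower. Of the 8 T cell markers tested, 1 was called lower and 0 higher. The 14 macrophage markers summed to 244 to 5665 TPM in tumours and to 80.7, 350 and 78.9 TPM in the K5-Tert, the Tert-123C>T and the wild-type pool, with 8 of 14 called higher, and 9 fibroblast markers summed to 96.1 to 2453 TPM in tumours and 42.3 to 365 TPM in pools, with 3 called higher. The 10 endothelial markers ran the other way, at 18.9 to 219 TPM in tumours against 199 to 1855 TPM in pools, with 8 called lower. The C cell and parathyroid markers, of cells that lie beside thyrocytes, summed to 2.90 to 72.3 TPM in tumours and to 272, 2710 and 417 TPM in the K5-Tert, the Tert-123C>T and the wild-type pool, with 3 of 5 tested called lower and 1 higher (median log2 -5.21). The Tert-123C>T pool held most of the T cell markers (213 TPM against 1.22 and 10.6 TPM in the K5-Tert and wild-type pools) and most of the endothelial markers. Members went both ways in that pool. Its MKI67, CCNB1, CCNE1 and BUB1 stood above those of the other pools, while its CENPE (0 TPM), MCM6 (3.69 TPM) and MCM2 (4.44 TPM) stood below. The neutrophil markers S100a8, S100a9, CXCR2, LY6G, RETNLG, MMP8 and NGP and the B cell markers CD79A, CD22 and PAX5 were at 0 in every pool. Within the tumours, the 2 with the most macrophage markers, Tert-123 tumour 4 (5665 TPM) and K5-Tert tumour 3 (4244 TPM), had the highest MKI67 (19.9 and 14.0 TPM). The next by these markers, Tert-123 tumours 6 and 7 (2542 and 1965 TPM), had MKI67 at 7.92 and 8.28 TPM. Other members went both ways in Tert-123 tumour 4. PCNA (67.4 TPM) was the highest of all tumours there, while CCNA2 (1.04 TPM), AURKA (0.315 TPM) and MYBL2 (0.156 TPM) were the lowest of the Tert-123 tumours. Leaving out Tert-123 tumour 4 and K5-Tert tumour 3 gave 17 members higher, beside 14.7% of all genes. MKI67 was among them (log2 1.69, adjusted p = 0.002567) and CENPF was lost (adjusted p = 0.05006). The part of these other cells in the members' differences was not tested.

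**Figure D5:**
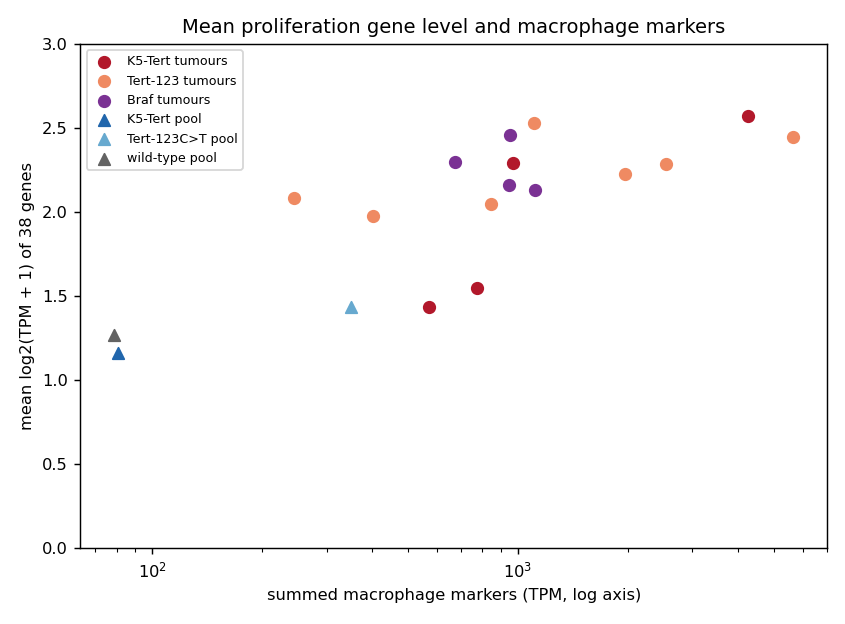
Mean log2(TPM + 1) of the 38 members in each library against the summed TPM of 14 macrophage markers (log axis), coloured by group, with triangles for the pools. The tumours span 244 to 5665 TPM of markers and the pools 78.9 to 350 TPM, and K5-Tert tumours 2 and 4 lie low at 1.55 and 1.44.

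Tert-123 tumours were next set against Braf tumours, a contrast of the promoter allele within BrafV600E. XIST, the RNA of the inactive X chromosome, was at 54.5 to 88.1 TPM in Tert-123 tumours 1 to 4. It was at 0.0636, 0.0343 and 0 TPM in Tert-123 tumours 5 to 7 and at 63.9 to 89.9 TPM in the Braf tumours. The K5-Tert, the Tert-123C>T and the wild-type pool stood at 1.29, 10.9 and 43.2 TPM. The part of this difference in the members' values was not tested. With limma, no member passed, with 0 higher and 0 lower of 36, and 0 of all genes in either direction (0% and 0%). At an unadjusted p under 0.05 there were 258 genes, of which 1 was a member. That was E2F1, at 1.17 to 3.84 TPM (median 2.10) in the Tert-123 tumours against 1.20, 1.07, 1.32 and 1.23 TPM in the Braf tumours (log2 0.63 ± 0.29, adjusted p = 0.9998), with 6 of 7 Tert-123 tumours above every Braf tumour. CDC6, which was too low to be tested, had the same order, with 0.507 to 1.35 TPM (median 0.907) in the Tert-123 tumours against 0.542, 0.343, 0.735 and 0.633 TPM in the Braf tumours and 6 of 7 above them. So did MCM6, with 6 of 7 above every Braf tumour at a log2 fold change of only 0.20 ± 0.19. How many of all genes have 6 of 7 in this order was not counted. No member had all its values in one group above all in the other, as 0.0544% of all genes did with Tert-123 tumours higher and 0.197% with them lower. CENPA averaged 2.996 ± 1.08 TPM in Tert-123 tumours and 5.01 ± 1.76 TPM in Braf tumours (SD, n = 7 and 4, log2 -0.58 ± 0.31), and CDC20 averaged 3.62 and 5.47 TPM (-0.59 ± 0.37). CDT1, the licensing factor, averaged 10.8 and 7.70 TPM (0.42 ± 0.23) and E2F2 1.43 and 0.927 TPM (0.30 ± 0.26). The standard markers lay close to 0 change, with MKI67 at 0.15 ± 0.42, TOP2A at -0.03 ± 0.34, PCNA at 0.08 ± 0.29, MCM2 at 0.04 ± 0.25, CCNB1 at -0.05 ± 0.28, CDK1 at 0.03 ± 0.26 and CCNE1 at -0.13 ± 0.36. All adjusted p-values of members were 0.9998, and the member median was -0.03 beside -0.01 for all genes. None of the 4 other cell cycle lists had a member past the threshold, and their smallest p-values were those of the histone chaperone gene ASF1B (2.24 against 1.30 TPM, log2 0.53), the acetyltransferase gene ESCO2 (1.03 against 2.01 TPM, -0.58), RBBP4 (32.6 against 27.0 TPM, 0.23) and CCND2 (36.9 against 45.3 TPM, -0.37).

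K5-Tert tumours set against Braf tumours contrast the transgene within BrafV600E. With limma, again 0 of 36 members were higher and 0 lower, where 0.394% of all genes were called higher and 15.0% lower. At an unadjusted p under 0.05, 3 of 36 members were lower and 0 higher, beside 5243 of all 14711 genes in either direction. No member had every K5-Tert tumour above every Braf tumour or below it, as 0.761% and 17.7% of all genes did. The excess of lower calls over all genes depended on the scaling, with 58 genes higher and 2205 lower as deposited but 438 higher and 550 lower after rescaling by factors of the TMM type. It also depended on single libraries, from 298 lower without Braf tumour 3 to 5211 lower without K5-Tert tumour 1. XIST, the RNA of the inactive X chromosome, was at 0.0294, 0, 52.5 and 0 TPM in the K5-Tert tumours, against 63.9 to 89.9 TPM in the Braf tumours. When its level was added to the fit, calls over all genes came to 13 higher and 202 lower, with no member among them. Markers of pericytes and smooth muscle summed to 92.4, 110, 203 and 43.2 TPM in the K5-Tert tumours against 20.7 to 41.1 TPM in the Braf tumours and 17.4 to 102 TPM in the Tert-123 tumours. Of these 8 markers 4 were called higher than in Braf tumours (median log2 1.24) and 3 higher than in Tert-123 tumours (0.88). The part of these cells in the members' values was not tested. The median of all genes was itself -0.48, so changes are also given relative to it, and the member median of -0.28 stood 0.21 above it. CDK2, the partner of cyclin E, was at 13.7, 6.26, 11.5 and 4.16 TPM in the K5-Tert tumours against 12.9, 14.1, 17.2 and 18.3 TPM in the Braf tumours (-0.86 ± 0.30, -0.37 relative to all genes, adjusted p = 0.05714), with 3 of 4 K5-Tert tumours below every Braf tumour. It passed, for example, without K5-Tert tumour 1 (-1.09, adjusted p = 0.008378) and without K5-Tert tumour 3 (-1.01, adjusted p = 0.04502), and after rescaling by factors of the TMM type it stood at -0.35 (adjusted p = 0.2425). Next by p were TYMS (2.17 against 4.11 TPM, -0.81 ± 0.35, adjusted p = 0.1096), MCM7 (14.1 against 20.1 TPM, -0.53 ± 0.24, adjusted p = 0.1216), MCM3 (7.91 against 12.1 TPM, -0.69 ± 0.33, adjusted p = 0.1438) and MCM2 (8.47 against 12.7 TPM, -0.58 ± 0.28, adjusted p = 0.1451). Relative to all genes these 4 stood at -0.32, -0.04, -0.20 and -0.10. MKI67 was at -0.26 ± 0.48, TOP2A at -0.31 ± 0.39, PCNA at -0.02 ± 0.32, CCNB1 at -0.40 ± 0.31, CDK1 at -0.02 ± 0.29, E2F1 at -0.06 ± 0.33 and CCNE1 at -0.69 ± 0.40, with adjusted p-values of 0.2188 to 0.9687.

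The K5-Tert tumours spread widely. For MKI67, TOP2A, CCNA2, KIF11 and CDK1, tumours 1 and 3 were high and tumours 2 and 4 low. TOP2A, for example, spanned 1.37 to 9.98 TPM in the K5-Tert tumours, against 4.27 to 5.84 TPM in the Braf tumours, and MKI67 spanned 2.31 to 14.0 TPM against 6.32 to 8.66 TPM. Tumours 2 and 4 were also the tumours with the fewest genes at 1 TPM and the lowest MALAT1, and their TMM-type factors were 0.54 and 0.58, against 0.996 to 1.22 in the Braf tumours. After rescaling by these factors the member means were 2.20, 2.11, 2.68 and 1.87 in K5-Tert tumours 1 to 4 and 2.03 to 2.24 in the Braf tumours. In K5-Tert tumour 4, CCNE1, MYBL2, PLK1 and AURKA were listed at 0, while its CENPA (4.46 TPM), MCM6 (14.6 TPM) and AURKB (2.52 TPM) were near or above the Braf means of 5.01, 12.5 and 1.98 TPM. How far the quality of these libraries sets their low values was not tested.

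Between the Tert alleles, K5-Tert against Tert-123 tumours, 1 member of 36 was lower and 0 were higher, where 20.0% of all genes were called lower and 0.476% higher (70 genes higher and 2946 lower, against 518 higher and 649 lower after rescaling by factors of the TMM type). It was MCM3, at 6.96, 4.61, 15.4 and 4.72 TPM in the K5-Tert tumours against 8.05 to 21.5 TPM (median 14.6) in the Tert-123 tumours (-0.90 ± 0.29, -0.42 relative to all genes, adjusted p = 0.03988), with 3 of 4 K5-Tert tumours below every Tert-123 tumour. After rescaling by factors of the TMM type it stood at -0.39 (adjusted p = 0.3326), and it did not pass when any 1 of K5-Tert tumours 2 and 4, Tert-123 tumours 2, 3, 5, 6 and 7 or Braf tumours 2 and 3 was left out (adjusted p = 0.05106 to 0.1615). Under that rescaling CENPA was higher instead, at 6.36, 2.74, 10.6 and 4.46 TPM in the K5-Tert tumours against 1.44 to 4.69 TPM in the Tert-123 tumours as deposited (log2 0.74 ± 0.31 and adjusted p = 0.08986 as deposited, log2 1.19 ± 0.28 and adjusted p = 0.0204 rescaled), and 2 of 4 K5-Tert tumours were above every Tert-123 tumour. No member had every K5-Tert tumour above every Tert-123 tumour or below it, as 0.136% and 5.43% of all genes did. CDK2 (-0.74 ± 0.27, adjusted p = 0.05344), CDT1 (-0.60 ± 0.23, adjusted p = 0.06937), MCM2 (-0.62 ± 0.25, adjusted p = 0.07691) and E2F2 (-0.64 ± 0.26, adjusted p = 0.08361) had the next smallest p. E2F1 was at -0.69, MKI67 at -0.40, TOP2A at -0.29, PCNA at -0.10, CCNB1 at -0.35, CDK1 at -0.05 and CCNE1 at -0.56, with adjusted p-values of 0.09536 to 0.8881. The 5 roles had medians of -0.58 (licensing), -0.29 (synthesis), -0.24 (regulators), 0.20 (checkpoint and exit) and -0.29 (chromosome and spindle), beside -0.47 for all genes.

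In both K5-Tert comparisons the other cell cycle lists had members lower and none higher in the values as deposited, but after rescaling by factors of the TMM type none was lower and 1 was higher in each, RBBP4 against Braf tumours and the anaphase-promoting subunit ANAPC2 against Tert-123 tumours. The shares lower against Braf tumours, 4.44% of other replication genes, 9.09% of other mitosis genes and 5.56% of E2F and RB genes, were below the 15.0% of all genes. Against Tert-123 tumours they were 22.2%, 7.58% and 16.7%, beside 20.0% of all genes. These shares are near or below those of all genes and are no result about the lists. Against Braf tumours the lower genes were 2 of 45 other replication genes, POLD3 (9.71 against 19.0 TPM, log2 -1.01, adjusted p = 0.03156), a subunit of DNA polymerase delta, and ORC5 (6.76 against 12.8 TPM, -0.79), a subunit of the origin recognition complex. They were also 6 of 66 other mitosis genes, led by the checkpoint gene MAD1L1 (17.6 against 32.9 TPM, -0.91, adjusted p = 0.0161), the anaphase-promoting subunit CDC23 (-0.78) and the phosphatase CDC25A (-0.95), and 1 of 18 E2F and RB genes, RBBP7 (81.2 against 131.3 TPM, -0.70). Against Tert-123 tumours they were 10, 5 and 3, led by MCM10 (0.659 against 2.31 TPM, adjusted p = 0.02112), the polymerase subunit POLA1 (3.13 against 6.61 TPM) and the checkpoint mediator CLSPN (0.716 against 2.52 TPM) among replication genes, MAD1L1 (-0.75), CDC25B (-0.88) and INCENP (-1.02) among mitosis genes, and RBBP7 (-0.58), E2F3 (-0.76) and E2F4 (-0.69). No D cyclin or inhibitor passed in either, with CCND1 at 127.3 TPM in the K5-Tert tumours and -0.72 (adjusted p = 0.09374) against Braf tumours. These 2 comparisons share the K5-Tert tumours. MAD1L1 remained lower than in Braf tumours after quantile normalization, and RBBP7 as well, while ASF1B was called higher there. With the length trend removed MAD1L1 was still lower, but RBBP7 and ASF1B did not pass. The list medians were -0.53, -0.45, -0.54 and -0.53 against Braf tumours, beside -0.48 for all genes.

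Across the 15 tumours most members followed one another, as did most other genes, which is given as a description because the values share libraries and a common scale. The correlation of a member with the mean of the other members had a median r of 0.644 and was above 0 for 36 of 36 tested members. With group means removed it was 0.617, above 0 for 35 of 36. The 14675 other genes tested had a median r of 0.475 with the member mean, above 0 for 93.3% of them, and 0.408 with group means removed. TOP2A (r = 0.932), CENPE (0.879), MKI67 (0.861), CCNA2 (0.820) and TPX2 (0.819) followed the others most closely. MCM6 (0.0836), CCNE2 (0.195), AURKA (0.263), CDT1 (0.286) and CENPA (0.288) followed them least. With group means removed MCM6 stood at -0.0313 and CENPA at 0.611.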

How the data were processed

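Sequencing was of YFP-positive cells, 9000 to 20000 per library, with 14 cycles of PCR and paired 100-base reads, per the labels' protocols. The table deposited by the authors is headed as normalised counts, and its values were read as TPM because each column sums to the same total, 1e+06. The aligner, build and annotation were not given in the sources used here. TPM keeps no read depth, so no counting interval is given. Of 23652 entries, the 26 named as calendar dates were dropped (up to 0.0455% of a library) and 23626 were used.

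Differences were tested on log2(TPM + 1) with limma 3.58.1 (R 4.3.3, two-sided, trended prior) over the 14711 genes at 1 TPM or more in at least 4 libraries, with Benjamini-Hochberg adjustment over all of them and a threshold of 0.05. The 3 tumour groups shared one fit (12 residual degrees of freedom), and the fit of all 18 libraries had terms for BrafV600E and for the Tert allele (14 residual degrees of freedom). The procedure was tested on simulated data. The 38 members, the other gene lists and the markers were chosen with earlier results of these data known, and the medians and counts of the lists are descriptions. The text names MKI67, TOP2A, PCNA, MCM2, CCNB1, CDK1, E2F1 and CCNE1 in every comparison, the members past the threshold or, where fewer than 3 passed, the 5 with the smallest p, and the 3 smallest p of each other list. CDC6, BIRC5, AURKA and other members outside this rule are given by value to account for all 38. Alternatives were other pseudocounts (0.1 and 5), filters (10 TPM or none), scalings (factors of the TMM type with 30% of ratios and 5% of levels trimmed, quantile, without RPPH1), library weights, Xist as a covariate, fewer groups and leaving out libraries. Removing a trend with transcript length and leaving out the 2 tumours highest in macrophage markers were added after the data were seen.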

Additional observations from a re-analysis of the deposited data

Results flagged for a closer look

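Within the tumour groups of 4 or 7 libraries, 7 of 117 sets of values had a library far from the others by Dixon's test, which by chance flags about 1 in 20. MYBL2 was highest in Braf tumour 2, at 2.106 TPM against 1.22 to 1.34 TPM in the other Braf tumours, and lowest in Tert-123 tumour 4, at 0.1564 TPM against 1.39 to 2.12 TPM in the other Tert-123 tumours. CDC20 was highest in Braf tumour 3, at 9.26 TPM against 3.68 to 4.48 TPM. TYMS was highest in Tert-123 tumour 4, at 7.283 TPM against 2.31 to 3.72 TPM. BUB1 was highest in Tert-123 tumour 5, at 1.24 TPM against 0 to 0.528 TPM. In K5-Tert tumour 3, E2F2 was highest at 1.415 TPM against 0.252 to 0.356 TPM, and CDC6 at 0.524 TPM against 0.0837 to 0.136 TPM. A difference of a Tert allele's change between tumours and pools passed for 0 of 36 members with limma's interaction test, with a smallest adjusted p of 0.1177 for K5-Tert and 0.255 for Tert-123C>T, and 4 and 3 members were under 0.05 unadjusted. Each genotype without BrafV600E is 1 pool there, assumed to vary like the tumours, so this test can show little and does not show that the changes are alike. How many of all genes were under 0.05 unadjusted is not given, so those member counts show no excess over other genes.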

How the results depend on the processing

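No paired analysis was possible because the replicate numbers were given in accession order and pair nothing. In the comparison of tumours with pools, 18 members were higher as reported and 13 to 20 when 1 library was left out. Under the 10 TPM filter, which tests 10 members, 3 were higher, beside 15.4% of all genes tested. Braf tumours were also set alone against the wild-type pool, which is 1 library, so no calls are given. There the log2 changes were, for example, larger for MKI67 (2.18) and UBE2C (2.92) and smaller for MCM6 (0.41), CDC20 (0.44) and TPX2 (0.65). In the fit of all tumours and pools, members lower were 1 each with no filter (CDC6), after quantile normalization (CCNE2) and after rescaling without RPPH1 (CDC6). All genes called lower in these settings were 6.27%, 16.8% and 10.7%. No member was lower when 1 library was left out. Over all genes the 2087 higher were 1225 to 2911 when 1 library was left out. TMM-type factors gave 20 members higher (beside 20.5% of all genes), quantile normalization 12 (beside 15% of all genes). Leaving aside the fit against the wild-type pool alone, MCM7, TOP2A and CENPA were called in every alternative that tested them. CENPF and FOXM1 were lost in several, such as quantile normalization (limma, adjusted p = 0.6144 and 0.5304).

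In K5-Tert against Braf tumours, members lower were 1 under the 10 TPM filter and 1 without RPPH1 (CDK2 in each), 4 with library weights, 3 without the 2 tumours highest in macrophage markers (CDK2, TYMS and MCM3), and 0 to 4 when 1 library was left out, the 4 without K5-Tert tumour 1. All genes called lower in these settings were 21.2% under the 10 TPM filter, 11.5% without RPPH1, 35.3% with library weights, 17.5% without the 2 tumours highest in macrophage markers and 35.6% without K5-Tert tumour 1, each above the members' share. In K5-Tert against Tert-123 tumours, 1 member was higher (CENPA) under TMM-type factors, 1 under quantile normalization and 1 with the length trend removed. All genes called higher there were 3.52%, 1.6% and 2.05%, and the lower members were 0 under these 3 scalings. With no filter and without RPPH1 the 1 lower member was CDC6 in place of MCM3, beside 9.19% and 9.27% of all genes. The lower members were 2 with a pseudocount of 0.1 (beside 22.3% of all genes) and 4 with library weights (26.8%). They were 2 under the 10 TPM filter, which tests 10 members (28.5%), and 5 without the 2 tumours highest in macrophage markers (20.5%). When 1 library was left out they were 0 to 6, the 6 without K5-Tert tumour 1, where 39.6% of all genes were lower. They were 0 with a pseudocount of 5 (16.1%), with Xist as covariate (11.7%), without K5-Tert tumours 2 and 4 (0.116%) and with the 2 groups alone (6.74%). Without K5-Tert tumours 2, 3 and 4, which leaves 1 K5-Tert tumour, MCM3 stood at log2 -0.91. The cause of these changes was not tested, beyond the fewer genes or libraries that a setting leaves. Over all genes, the 2205 lower in K5-Tert than in Braf tumours were 550 under TMM-type factors and 13 without K5-Tert tumours 2 and 4, and the 2946 lower than in Tert-123 tumours were 649 and 17. In Tert-123 against Braf tumours, members past the threshold were 0 under every alternative run. No direction of a called member was reversed in the alternatives run. Many members lie near 1 TPM, where 1 library can decide a call.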
